A study of Mus musculus with 4 samples.

Results

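The 60 genes described here encode nuclear parts of respiratory complexes II to V, or proteins that help to assemble them, in mouse thigh skeletal muscle. They were chosen by symbol among the 40137 gene units of the deposited count tables: single genes beginning with Sdha to Sdhd, Uqcr, Cox and a digit, or Atp5, together with Cyc1 and Cycs. The annotation gives 58 of them as protein coding and 2, Cox6c2 and Cox20b, as processed pseudogenes. Another 4 matching genes, Atp5g2, Atp5o, Cox16 and Cox17, are counted in units shared with a neighbouring gene and were not used.

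RNA-seq was made from wild-type male mice of the inbred strain C57BL/6J. There were 3 libraries from mice aged 28 months and 1 from an age of 18 months, with no treatment in either group. The purpose was to check results of exon arrays on alternative splicing, the joining of different exons into different transcripts of a gene. The labels do not tie the libraries to separate animals, so p-values measure only the spread between these samples, which may be technical. For the lone younger library the fits borrow the spread of the older ones. With 3 libraries against 1, an exact permutation test cannot go below p = 0.25.

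Complex II (succinate dehydrogenase) feeds electrons from the citric acid cycle into the respiratory chain. Complex III passes them to cytochrome c, complex IV (cytochrome c oxidase) passes them on to oxygen, and complex V (ATP synthase) uses the proton gradient so formed to make ATP. Complex II is wholly nuclear encoded, whereas the others also hold subunits made from the mitochondrial genome. Several complex IV subunits exist as a pair of isoforms, of which one is enriched in heart and skeletal muscle.

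The counts summed over bins, the pieces of exon between annotated boundaries, came to 67279205 to 76163175 at 28 months and 65780464 at 18 months. Values below are listed in the order 28-month replicates 1, 2 and 3, then 18 months. Levels are in CPM, the normalised count of a gene relative to the TMM-scaled library total. Replicate 2 at 28 months stood apart, with a TMM factor of 1.28 against 0.877, 0.897 and 0.990. The 9 markers of fast muscle fibres summed to 205003, 102043, 208497 and 121780 CPM. Red cell markers reached 3785 CPM in 28-month replicate 3 against 145 to 378 CPM elsewhere, macrophage markers summed to 95.4 to 164 CPM in the older libraries and 57.9 CPM in the younger, and Schwann cell markers to 96.4 to 183 and 326 CPM. The part of these lists in the results below was not tested. The extraction text of the labels describes epidermal cells, but 4 keratinocyte markers summed to at most 1.12 CPM and Krt5 had 0 counts in every library. In a bulk sample, fewer cells of a type and less RNA per cell cannot be told apart.

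No gene of complexes II to V passed the test for a different amount of RNA between the ages. The edgeR quasi-likelihood test called 0 of the 58 members with enough counts (Benjamini-Hochberg adjusted p under 0.05), where 0% of all 15376 units were called, and the DESeq2 Wald test also called 0 members. Cox7b2 and Cox8c, isoforms known mainly from testis, had 0 to 1 counts per library and were not tested. At an unadjusted p under 0.05, 6 members were higher at 28 months, where 2.54% of all units were, and 3 were lower, where 2.36% were. The fitted log2 difference was positive for 33 members and negative for 25, with a median of 0.11 against 0.06 over all units. For 17 members the 18-month CPM was lower than that of every older library (25.4% of all units), and for 16 it was higher (26.4%).

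**Figure D1:**
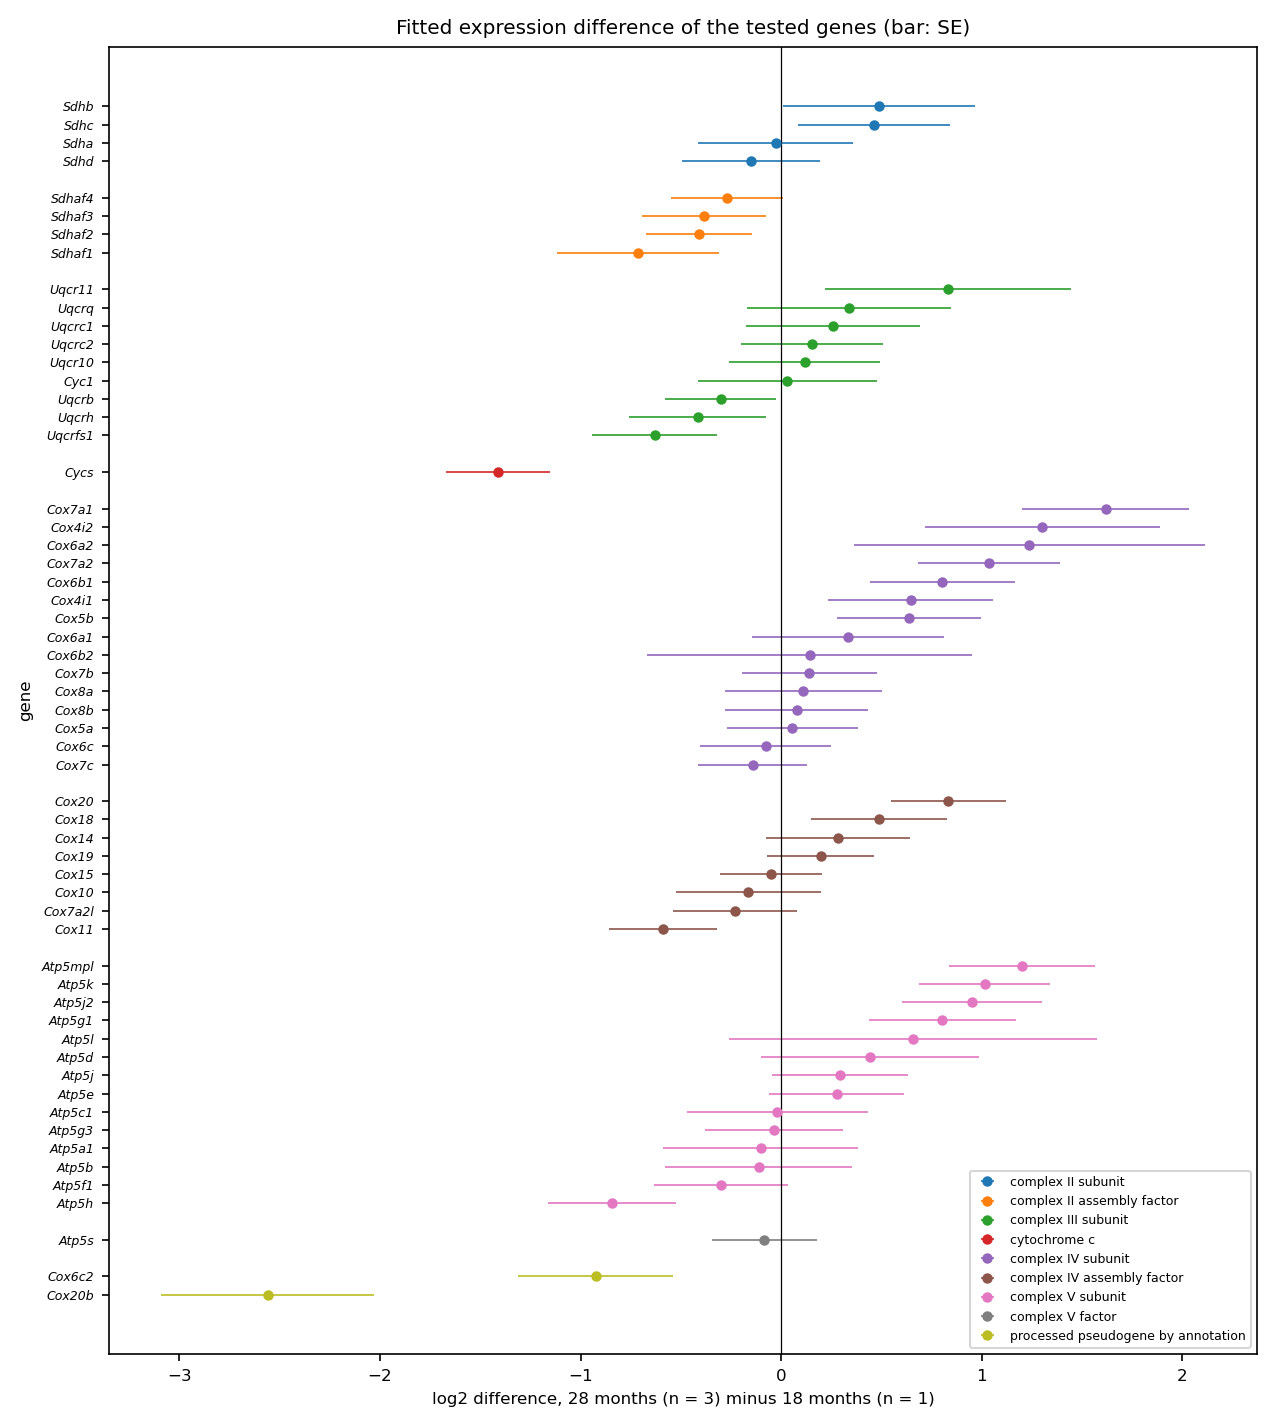
Fitted log2 differences (28 minus 18 months, horizontal axis) of the 58 tested genes, grouped by role, with bars of 1 SE. Of the 15 complex IV subunits 13 lie to the right of 0, and the 4 complex II assembly factors and Cycs lie to the left.

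Among the 4 catalytic and anchor subunits of complex II, 2 were higher and 2 lower in older muscle (median log2 difference 0.22). Sdha, the flavin-carrying subunit that oxidises succinate, measured 1231, 921, 1143 and 1120 CPM (log2 difference -0.03 ± 0.39 SE), so that the 18-month level lay among the 28-month levels. Sdhb, the iron-sulphur subunit, measured 625, 331, 565 and 361 CPM. The 4 assembly factors Sdhaf1 to Sdhaf4, which insert cofactors or mature the catalytic subunits, all had their highest CPM at 18 months, as did 26.4% of all units. Their log2 differences ran from -0.71 to -0.27 and none passed the test.

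In complex III 6 of 9 subunits were higher and 3 lower, with a median of 0.12. Uqcrc1, a core subunit, measured 756, 448, 679 and 525 CPM (log2 difference 0.26 ± 0.43 SE). Cyc1, the cytochrome c1 subunit, measured 505, 269, 404 and 384 CPM. For both genes the 18-month level lay inside the 28-month range. Uqcrfs1, the Rieske iron-sulphur protein, measured 203, 151, 179 and 275 CPM, the 18-month library being the highest (log2 difference -0.63 ± 0.31 SE, edgeR adjusted p = 0.859).

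Cycs, the soluble electron carrier between complexes III and IV, had the smallest p of the set. It measured 37.0, 41.8, 32.7 and 98.9 CPM. The 3 older libraries lay close together and the 18-month library far above them. The log2 difference was -1.41 ± 0.26 SE, with an adjusted p = 0.859 in edgeR and an adjusted p = 0.051 in DESeq2. The gene lies on the minus strand at chr6:50562563-50566538 of GRCm38, and 13 processed pseudogenes match it at 90% identity or more over at least 100 bases. How reads shared with such copies were counted is not given in the sources used here, so the Cycs value is uncertain to that extent. The same limit holds for all 21 members with such copies, among them Sdhaf2 with 15 and Atp5h with 6.

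Complex IV subunits mostly had a positive fitted difference, without passing the test: 13 of the 15 tested did, with a median of 0.33. In 6 of the 15 the 18-month library was the lowest of the 4 (25.4% of all units). Over all 15376 units 8361 differences were positive. Without 28-month replicate 1 the subunits stood at 10 positive and 5 negative. Replicate 2 at 28 months lay below the 18-month level in several subunits, among them Cox5a, Cox6a1, Cox6a2, Cox6c, Cox8a and Cox8b. The median log2 CPM of all members had an SD of 0.39 between the 28-month libraries. Cox7a1, the muscle isoform of a small membrane subunit, measured 157, 192, 115 and 50.4 CPM. Its log2 difference was 1.62 ± 0.42 SE (edgeR adjusted p = 0.859). Cox7a2, the isoform found in most tissues, measured 312, 245, 231 and 128 CPM. In both Cox7a genes every 28-month library exceeded the 18-month one. Cox4i1, the common form of the largest nuclear subunit, measured 1234, 862, 1082 and 677 CPM, again without overlap, and Cox6b1, which faces the intermembrane space, 474, 358, 369 and 229 CPM. Cox5a, which lies on the matrix side, measured 399, 322, 328 and 337 CPM, with overlap between the ages.

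Cox6a2, the heart and muscle isoform of subunit VIa, measured 356, 87.9, 357 and 113 CPM, low in 28-month replicate 2 and in the 18-month library. The fast-fibre marker sum given above was low in the same pair of libraries. With all 4 libraries the log2 difference was 1.24 ± 0.87 SE and without replicate 2 it was 1.68 ± 0.14 SE.

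Among the 8 complex IV assembly factors 4 were higher and 4 lower. Cox20, which chaperones the mitochondrially made subunit 2, measured 21.7, 17.5, 18.7 and 10.8 CPM (log2 difference 0.83 ± 0.28 SE). Its processed pseudogene Cox20b went the other way, at 0.749, 0.410, 0.497 and 3.26 CPM. Cox6c2, annotated as a pseudogene of the subunit gene Cox6c, measured 3.11, 2.20, 2.96 and 5.24 CPM. As Cox20b and Cox6c2 share sequence with their parent genes, their counts and those of the parents are uncertain. Cox11, a copper-delivery factor, measured 17.8, 16.9, 13.8 and 24.4 CPM.

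In complex V 8 of 14 subunits were higher and 6 lower, with a median of 0.29. In the catalytic head the ages overlapped: Atp5a1 measured 3286, 2000, 2987 and 2960 CPM and Atp5b 4615, 3289, 4207 and 4366 CPM. The 18-month library was the lowest of the 4 in 6 of the 14 subunits (25.4% of all units): Atp5mpl, Atp5k, Atp5j2, Atp5g1, Atp5e and Atp5j. Atp5mpl, a small proteolipid, measured 229, 244, 173 and 93.6 CPM (log2 difference 1.20 ± 0.36 SE). Atp5k, a subunit at the dimer interface, measured 151, 132, 112 and 65.2 CPM (1.02 ± 0.33 SE), and Atp5j2, also of the membrane part, 352, 274, 273 and 155 CPM (0.95 ± 0.35 SE). None of these 3 passed the edgeR test after adjustment (adjusted p = 0.859 for each). Counted on the bins on the 3′ side alone, the log2 differences were 1.11 for Atp5mpl, 1.15 for Atp5k and 0.56 for Atp5j2. Atp5h, a subunit of the peripheral stalk, was the other way round at 27.9, 20.2, 31.2 and 47.4 CPM (-0.84 ± 0.32 SE). Atp5l, a membrane subunit with 16 similar processed pseudogenes, measured 5.02, 3.90, 16.7 and 5.41 CPM, replicate 3 alone being high. Atp5s, a factor of complex V outside the subunits, measured 13.2, 13.4, 12.1 and 13.7 CPM.

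**Figure D2:**
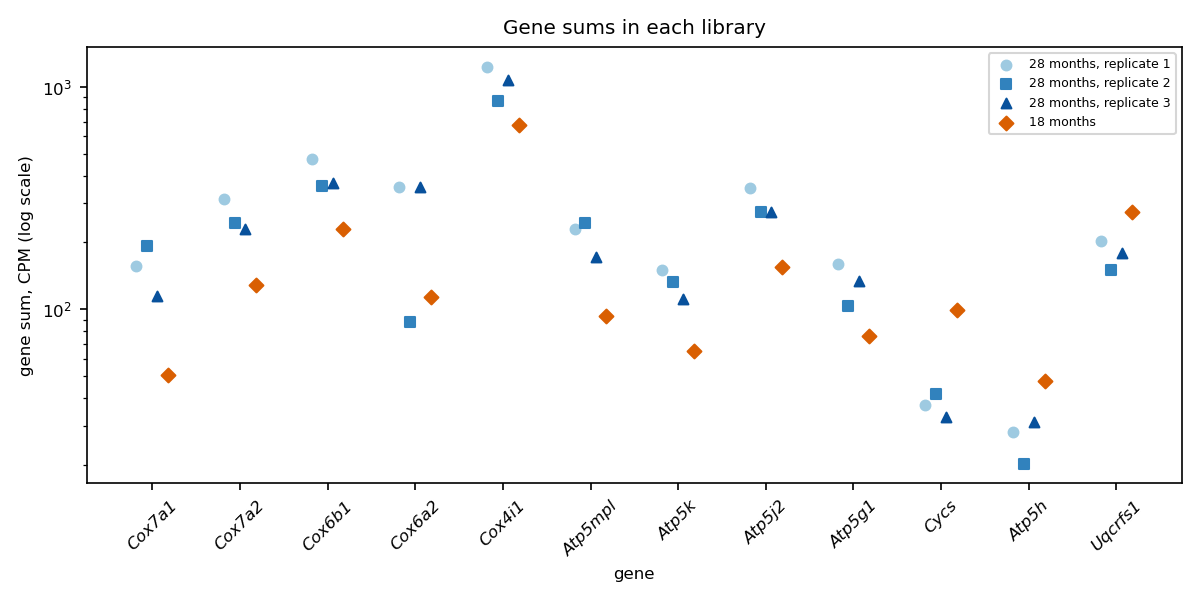
Gene sums in CPM (log axis) of 12 named genes, 1 symbol per library. For Cox7a1, Cox7a2, Cox6b1, Cox4i1, Atp5mpl, Atp5k, Atp5j2 and Atp5g1 the 18-month symbol lies below all 3 others, for Cycs, Atp5h and Uqcrfs1 above them, and for Cox6a2 between replicate 2 and the rest.

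Members were also described by the length of their coding sequence. Of 19 members with under 300 coding bases 16 were higher in older muscle (median log2 difference 0.28, beside 0.13 over 238 genes of that length). Of 22 members with 300 or more but under 600 bases 12 were higher, with a median of 0.10 beside 0.01. Of 15 members with 600 or more bases 5 were higher, with a median of -0.05 beside 0.10. Without 28-month replicate 2 this last pair of medians became 0.10 and 0.05. Of all genes, 60.1% in the shortest class, 50.4% in the middle class and 58.1% in the longest were higher. These are descriptions and the difference between classes was not tested.

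The count of 0 members called ended when 28-month replicate 2 was left out. Without it edgeR called 13 members higher, where 7.52% of all units were higher, and 2 lower, where 4.37% were. Those called higher were Cox6a2, Cox7a1, Uqcr11, Atp5mpl, Cox7a2, Atp5j2, Atp5k, Atp5g1, Cox20, Cox6b1, Cox4i1, Atp5d and Sdhb, with log2 differences of 0.74 to 1.68, and those called lower were Cycs at -1.48 and Cox20b at -2.36. That fit takes its spread from 2 older libraries alone. Counting only each gene's most abundant bin moved the members' median from 0.11 to 0.41, with 0 called.

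The isoform genes of complex IV and of the c subunit of complex V were compared by their shares within each pair. Cox7a1 made up 33.5, 43.9 and 33.3% of the Cox7a1 and Cox7a2 counts at 28 months (36.9% ± 6.05 SD, n = 3) and 28.2% at 18 months (exact 95% binomial interval 27.4 to 29.0%). Counted on the most abundant bin alone its shares were 33.0, 42.9, 32.7 and 32.2% (interval at 18 months 30.6 to 33.8%), so that 2 older libraries lay within counting error of the younger. Cox6a2 made up 90.8, 84.3 and 92.8% of its pair at 28 months and 84.2% at 18 months, replicate 2 being close to the 18-month library. On the most abundant bin alone the Cox6a2 shares were 88.1, 79.6, 90.7 and 75.7% (interval at 18 months 74.3 to 77.1%). Cox8b, the muscle isoform of subunit VIII, gave 88.6, 90.0, 88.5 and 89.2%, so the ages overlapped in the summed bins. On the most abundant bin alone its shares were 84.5, 86.7, 84.7 and 83.6% (interval at 18 months 82.6 to 84.5%), the 18-month share being the lowest. In CPM, Cox8b measured 186, 120, 145 and 143, its partner Cox8a 23.9, 13.3, 18.9 and 17.3, and Cox6a1, the partner of Cox6a2, 36.1, 16.4, 27.6 and 21.2. Cox4i2 and Cox6b2, the forms of lung and testis, stayed at or below 0.152% and 0.612% of their pairs, at 0.491 to 1.33 and 0.689 to 2.27 CPM. Atp5g1, 1 of the genes for the rotating c subunit, made up 22.0, 18.9 and 21.9% of Atp5g1 and Atp5g3 counts at 28 months (20.9% ± 1.75 SD, n = 3) and 13.0% at 18 months. Atp5g1 measured 161, 103, 134 and 76.0 CPM and Atp5g3 570, 443, 478 and 509 CPM, without overlap in the first and with overlap in the second. Atp5g1 has 17 similar processed pseudogenes. Summed bins are not per length, so these shares are read across libraries only, and the intervals cover counting error only.

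Neighbouring gene lists give the setting. Of 38 tested genes with the symbol of a nuclear complex I subunit (Nduf) 30 were higher in older muscle, beside 8361 of all 15376 units. The Nduf median was 0.25 and 0 of these genes passed. They were taken by symbol alone, Ndufa4 and Ndufa4l2 included, so not every one need be a complex I subunit. Of 13 listed subunit genes of the mitochondrial genome 6 were tested, mt-Nd3 at only 0.419, 0.543, 0.464 and 1.01 CPM. All 6 had a negative difference, with a median of -1.30 and 0 passing, though mt-Co2 at 250, 14.3, 259 and 195 CPM overlapped between the ages. Without 28-month replicate 2, 5 of these 6 were negative and 4 were called lower, and 10 Nduf genes were called higher and 1 lower. In that fit 7.52% of all units were called higher and 4.37% lower. The gene mt-Co1, the catalytic subunit of complex IV, measured 28122, 15657, 25762 and 58295 CPM. Of 23 other assembly factors 11 were higher and 12 lower, and of 6 regulators of mitochondrial biogenesis 2 were higher and 4 lower. Ppargc1a, a coactivator of these genes, measured 28.8, 30.6, 25.5 and 38.5 CPM.

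The start regions of many members hold letters bound by the activators NRF1 and the ETS family, the latter including GABPA (NRF2). RefSeq promoter sequences (GRCm38.p6, 250 bases before to 50 after the start) were at hand for 43 members. The NRF1 core GCATGCGC, or its reverse complement GCGCATGC, occurred in 7 of them (16.3%), against 3.05% of 27025 genes. The ETS core CCGGAAG, or CTTCCGG, occurred in 19 (44.2%), against 9.93%, and either in 21 (48.8%), against 12.4%. The 27025 genes are all those with a promoter sequence, expressed in muscle or not, so they are not a background matched to the members. The NRF1 core and its reverse complement can overlap each other. A match is a description of the letters only. The windows of 3 members that hold the NRF1 core are printed with it in capitals, since Cycs had its highest CPM and Atp5k its lowest at 18 months while both hold these letters.
Cycs, chr6:50566611-50566640, minus strand: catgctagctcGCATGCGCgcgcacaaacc
Sdhb, chr4:140961206-140961235, plus strand: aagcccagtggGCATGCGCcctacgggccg
Atp5k, chr5:108434429-108434458, minus strand: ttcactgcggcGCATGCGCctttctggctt

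The sequencing was made for exon usage, and for that measure 15 members passed the test. The edgeR diffSpliceDGE test with Simes p-values called them out of 55 members tested, against 3.54% of all genes tested. Among all genes and among members the share called was larger in abundant genes. Of 6 members with a mean under 1000 tested counts 0 were called (all genes 0.756%), of 23 with 1000 to 10000 counts 3 (all genes 3.56%), and of 26 with 10000 or more counts 12 (all genes 20.8%). Called were 3 of 4 complex II subunits (Sdha, Sdhb and Sdhc), 1 of 3 complex II assembly factors (Sdhaf4), 2 of 9 complex III subunits (Uqcrb and Uqcrc2), 2 of 15 complex IV subunits (Cox4i1 and Cox6c), 0 of 8 complex IV assembly factors, and 7 of 14 complex V subunits (Atp5a1, Atp5b, Atp5e, Atp5g3, Atp5h, Atp5j and Atp5j2). Of 36 Nduf genes tested 8 were called.

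Of 459 member bins tested 21 were called, 8 with a larger share of their gene's counts at 28 months (all bins 0.208%) and 13 with a smaller share (all bins 0.158%). In every called bin the 18-month share lay outside the 28-month range. A mean of 10 counts was needed to enter the test, and 10 of the 21 bins reached it only through the age in which they are high, so that the p-values of these bins support nothing and are not printed. Among the 13 bins with a smaller share at 28 months these were the 6 bins Atp5a1 bin 10, Atp5e bin 6, Cox4i1 bin 8, Sdha bin 16, Sdhaf4 bin 2 and Uqcrc2 bin 10, and among the 8 with a larger share the 4 bins Sdhc bins 10 and 11, Uqcrb bin 6 and Atp5h bin 11. A called bin with 10 or more counts at both ages was found in 9 of the 15 members (Atp5b, Atp5g3, Atp5j, Atp5j2, Cox6c, Sdhb, Sdhc, Uqcrb and Uqcrc2). In the other 6 the call rests only on bins of the first kind. In Sdhc, Uqcrb and Uqcrc2 the bin of smallest p was also of the first kind, so the gene-level p of these genes comes from such a bin as well.

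**Figure D3:**
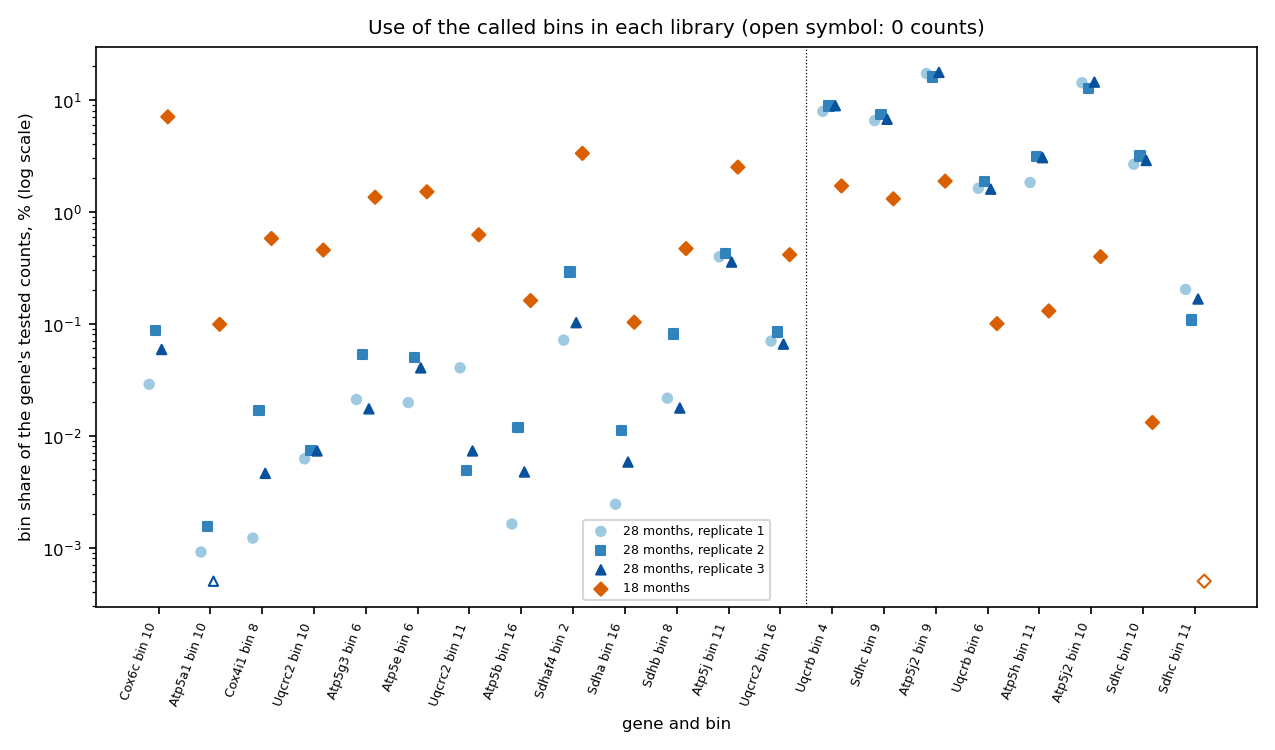
Share of each called bin in the tested counts of its gene (percent, log axis), 1 symbol per library, with open symbols for 0 counts. Left of the dotted line the 18-month symbol lies above the 28-month symbols (13 bins), right of it below (8 bins).

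The bins used more at 18 months lay outside the coding sequence wherever they could be placed. Of the 13 bins, 8 had a place on the annotation: 5 belong only to transcripts annotated as retained intron and 3 only to other noncoding transcripts of the gene. Over all placed genes 94 of 1024 tested retained-intron bins were called, 93 of them lower at 28 months, beside 5 of 27 in members. The sequences across the edges of the called bins are shown for members away from untranslated regions, with coding exon in lower case and the first or last 25 bases of the bin in capitals, because these bins begin with GT or end with AG, the letters at the ends of most introns.
Atp5e bin 6, chr2:174463940-174463979, minus strand: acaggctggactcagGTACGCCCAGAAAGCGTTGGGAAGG
Atp5g3 bin 6, start, chr2:73909839-73909878, minus strand: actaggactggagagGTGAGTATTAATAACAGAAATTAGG
Atp5g3 bin 6, end, chr2:73909363-73909402, minus strand: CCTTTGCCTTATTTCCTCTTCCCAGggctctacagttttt
Sdhb bin 8, chr4:140973766-140973805, plus strand: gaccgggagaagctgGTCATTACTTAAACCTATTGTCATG
Sdhaf4 bin 2, chr1:24003132-24003171, minus strand: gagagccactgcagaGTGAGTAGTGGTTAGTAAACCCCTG
Atp5b bin 16, chr10:128088296-128088335, plus strand: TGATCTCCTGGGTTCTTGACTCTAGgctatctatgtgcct

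In Cox6c, a small complex IV subunit, bin 10 held 8, 28 and 13 counts at 28 months and 1796 at 18 months. These were 0.029, 0.087, 0.059 and 7.04% of the gene's tested counts (edgeR adjusted p = 5.19e-14). The bin could not be placed on the annotation. In Atp5e, the epsilon subunit of ATP synthase, bin 6 held 0.020, 0.050, 0.040 and 1.51%. In both genes the 18-month library stood alone. In Cox4i1 bin 8 held 0.0012, 0.017, 0.0046 and 0.576%. In Atp5g3, a gene for the c subunit, bin 6 held 0.021, 0.053, 0.017 and 1.35% (adjusted p = 1.59e-06).

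Uqcrc2, a core subunit of complex III, had 3 bins called lower, none placed. Bin 10 held 0.0062, 0.0073, 0.0073 and 0.454%. Bin 11 held 0.040, 0.0049, 0.0073 and 0.622%, from 26, 4, 4 and 330 counts, with 10 or more at 28 months in replicate 1 alone. Bin 16 held 0.070, 0.084, 0.066 and 0.413%. In Atp5j, a stalk subunit, bin 11 was used in all libraries, at 0.395, 0.424 and 0.354% at 28 months (0.391% ± 0.035 SD, n = 3) and at 2.50% at 18 months (exact 95% interval 2.29 to 2.72%). Sdhb bin 8 held 0.022, 0.081, 0.018 and 0.468%, and Sdhaf4 bin 2 held 0.071, 0.289, 0.102 and 3.32%, the latter from 1, 6, 1 and 51 counts. Sdha bin 16 held 0.0024, 0.011, 0.0058 and 0.103%, Atp5b bin 16 held 0.0016, 0.012, 0.0047 and 0.161%, and Atp5a1 bin 10 held 0.00091, 0.0015, 0 and 0.0986%, all minor parts of these abundant transcripts. In 28-month replicate 3, 0 counts in Atp5a1 bin 10 allow up to 3 counts.

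The 8 bins used more at 28 months lay in 4 genes, and all were on the 5′ side of the middle or at it. Of them 3 were the most 5′ tested bin. Of the 13 bins used less at 28 months, 8 also lay there, and 0 were the most 5′ tested bin. In Sdhc, a membrane anchor of complex II, bin 10 held 696, 786 and 553 counts at 28 months and 2 at 18 months, or 2.65, 3.14, 2.87 and 0.013%. The next bin, 9, held 6.50, 7.39, 6.68 and 1.30% (edgeR adjusted p = 0.0258). The first bin, 11, held 53, 27 and 32 counts against 0, which allows a share of up to 0.0196% at 18 months. The bins at the other end of Sdhc had larger shares at 18 months: bin 2 held 20.4, 19.3, 21.1 and 40.3% (not called).

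In Atp5j2 the first tested bin, 10, held 14.2, 12.7, 14.4 and 0.397% (adjusted p = 9.41e-07) and the second, 9, held 17.1, 16.0, 17.5 and 1.87%. In Uqcrb, a small subunit of complex III, bin 6 held 1.61, 1.87, 1.59 and 0.0999%, and bin 4 held 7.87, 8.77, 8.84 and 1.70% (edgeR adjusted p = 0.0218). In Atp5h bin 11 held 1.82, 3.11, 3.03 and 0.130%, from 34, 61, 57 and 4 counts. In all 4 genes the 18-month share of these bins lay below that of every older library, though in Atp5h the older libraries differed among themselves.

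**Figure D4:**
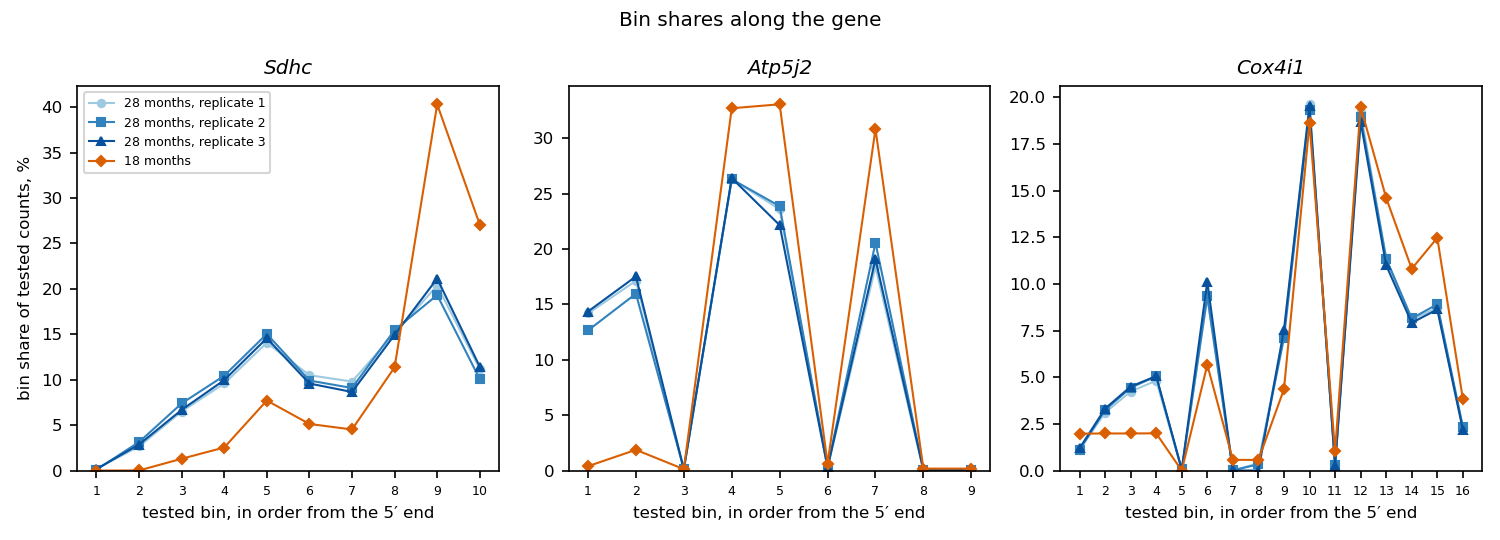
Share of tested counts (percent) in each bin of Sdhc, Atp5j2 and Cox4i1, in order from the 5′ end, 1 line per library. The 28-month lines nearly coincide, and the 18-month line is lower over most bins near the 5′ end, except the first of Cox4i1, and higher in the most used bins near the 3′ end of Sdhc and Cox4i1.

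Lower 5′ shares at 18 months were found over all genes as well. The share of counts in the bins on the 5′ side of the middle (the 5′ share) had a median of 28.4, 29.3, 28.7 and 23.4% over 53 members, beside 30.8, 32.4, 31.1 and 23.5% over 9594 genes. It was lower at 18 months than in every older library in 45 of 53 members and in 80.2% of all genes, so that the members' count was near the background. Among members the gap was widest in Sdhc (33.0, 36.1, 34.3 and 11.6%), Atp5j2 (57.7, 55.1, 58.4 and 35.1%), Uqcr11 (41.0, 40.7, 42.6 and 23.4%) and Cox14 (26.1, 26.2, 26.7 and 9.72%). Cox7b was 1 of 2 members with their largest 5′ share at 18 months, at 28.4, 29.3, 29.2 and 31.8%. The part of this 5′ difference in the exon usage calls was not tested.

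**Figure D5:**
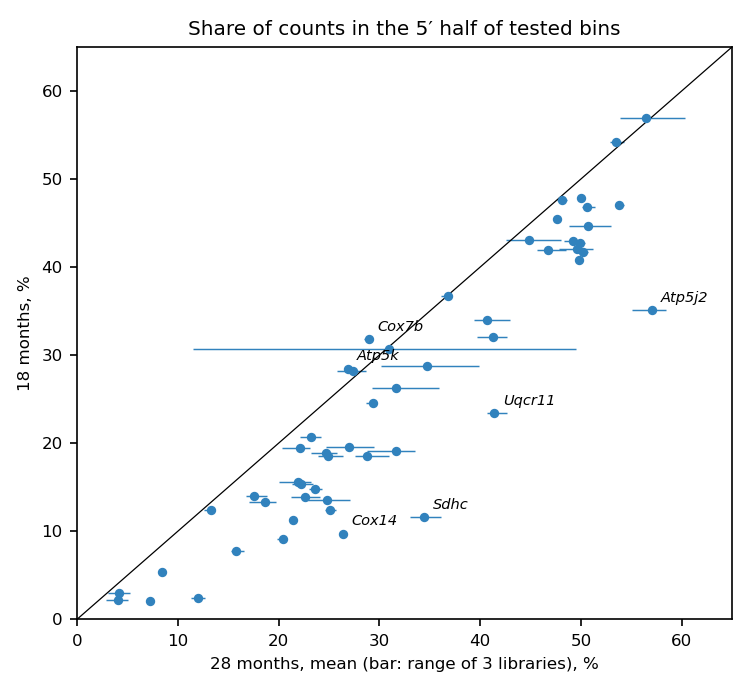
Share of counts in tested bins on the 5′ side of the gene's middle bin at 18 months (percent, vertical axis) against the 28-month mean with the range of its 3 libraries, for 53 genes, with the line of equality. Most points, 45 of 53, lie below the whole 28-month range.

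Retained-intron bins together held a larger share at 18 months than in any 28-month library in 8 of 13 members that have them, against 40.4% of all placed genes. The median share was 1.08, 1.15, 1.20 and 1.17% in these members and 0.074, 0.331, 0.084 and 0.357% over all placed genes. The 40.4% is therefore not a background matched to the members. Atp5e gave 1.75, 2.00, 1.96 and 5.51%, Atp5j 1.99, 2.26, 1.59 and 4.80%, and Cox4i1 0.676, 0.635, 0.263 and 2.19%. Uqcrb (1.51, 1.58, 1.41 and 1.17%) and Cox6a1 (1.08, 1.19, 1.20 and 1.01%) had their lowest share at 18 months.

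The set of called genes depended on the libraries. Without 28-month replicate 2, 29 members were called for exon usage, against 30.5% of all genes, and without replicate 1 or replicate 3 there were 11. Sdhb, Sdhaf4 and Atp5h lost their call without replicate 1 and without replicate 3 (edgeR Simes adjusted p = 0.0985 and 0.46 for Sdhb). Atp5b lost it without replicate 1 (adjusted p = 0.938 in the same test), Sdha without replicate 3 and Atp5a1 without replicate 2. The remaining 9 called members kept their call in each of these fits. For Atp5e and Cox4i1 the only called bins had reached the count minimum through the age in which they are high. Sdhc bin 9 and Uqcrb bin 4, with 10 or more counts at both ages, were not called without replicate 1 or without replicate 3. Uqcrc2 bin 11 held 26, 4, 4 and 330 counts, so without replicate 1 each remaining 28-month library had under 10. Uqcrc2 bin 16 was not called in that fit. Atp5g3 bin 6 held 8, 23, 5 and 446 counts, so without replicate 2 each remaining 28-month library had under 10. Calls kept by bins that entered through their high age alone support nothing.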

How the data were processed

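The deposited tables, 1 per library, hold raw counts per exonic bin, in the form of the DEXSeq counting script. Per the submitters' processing notes, the tools were bcl2fastq 1.8.3 and TopHat2 2.0.4, with GRCm38 as the build. The counter, annotation and strand setting are not given in the sources used here. Entries that name no gene (3.36 to 5.20% of the total) were left out. A fragment can count in several bins, so gene sums exceed fragments.

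Gene counts are sums over bins, and those averaging at least 10 were tested with edgeR 4.0.16 (quasi-likelihood, TMM), 28 against 18 months, with 2 residual and 3.17 prior degrees of freedom. Exon usage was tested with diffSpliceDGE on bins with a mean of at least 10. All p-values were adjusted over the whole table (Benjamini-Hochberg, 0.05). Alternatives included DESeq2 1.42.0 and limma 3.58.1. Of the isoform groups, Atp5g2 was left out of the Atp5g sum because its unit is joined. Bins were placed on GENCODE M21 only in genes with equal numbers of bins (40 members), which does not prove the placement. Pseudogenes were matched with BLAST 2.17.0.

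Named genes were the isoform pairs, 8 core genes (Cycs included), the 6 smallest p in each direction, and every member called for exon usage with its bin of smallest p; others named are illustrations chosen after their values were seen. Members and lists were chosen with earlier results of these data known. The scripts were tested on simulated data. For bin use the simulated spread was lower than the biological coefficient of variation of 0.335 fitted to these bins. The simulations held no 5′ difference and no outlying library, so they do not measure how often the exon usage calls are wrong.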

Additional observations from a re-analysis of the deposited data

How the results depend on the processing

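The number of members called for expression was 0 under DESeq2 size factors, count minimums of 1 and 100, a library size computed without mitochondrial genes or the top 20 genes, the DESeq2 Wald test and, added after seeing the data, the most abundant bin or the bins on the 3′ side, and ran from 0 to 15 when 1 older library was left out. The members' median log2 difference ran from -0.06 (without replicate 1) to 0.24 (without replicate 2), and was 0.41 with the most abundant bin. Exon usage calls among members ran from 11 to 29 genes and 14 to 70 bins with 1 older library left out. The gene F-test called 24 genes, of which 14 were among the 15 of the Simes test, and limma voom with diffSplice called 16 genes (11 of the 15) and 37 bins. A mean bin count of at least 50 left 11 genes and 16 bins. With the most abundant bin, the 28-month minus 18-month share difference went from 5.07 to 10.4 percentage points for Cox6a2 and from -0.12 to 1.71 for Cox8b, and from 8.68 to 4.02 for Cox7a1, which was 5.19 without replicate 2. The causes were not tested. No paired analysis was possible because there is a single 18-month library and its label carries no replicate number. No fit could leave out the 18-month library, and its spread was not measured.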
